A study of Mus musculus with 12 samples.

Results

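The genes described here encode the enzymes and carriers that burn fatty acids: the synthetases that activate them, the carnitine shuttle that brings them into mitochondria, the beta-oxidation spiral, its electron acceptors, the peroxisomal branch and the 2 enzymes that set malonyl-CoA. Their expression was read from single-colour arrays of mouse myocardium. A list of 38 genes was drawn up by function, and a gene entered when the platform annotation gave 1 of its probe sets that symbol. Of the 38 genes, 35 had a probe set, out of 19505 genes with one on the array, and all 35 were among the 13653 genes tested. Acsl1, Acsl3 and Etfb had no named probe set and were not analysed here.

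There were 12 arrays, each taken here as 1 mouse, with titles that read myocardial tissues from mice. The AngIV group held 4 diabetic mice that were infused with high-dose angiotensin IV at 2.88 mg/kg/day, starting after week 8 and ending after week 24. The DM group held 4 diabetic mice without the peptide. The NC group held 4 vehicle-injected, non-diabetic mice, the negative controls. Diabetes was induced with streptozotocin, a toxin that kills insulin-producing beta cells, injected on 5 days, and mice were taken on when fasting blood glucose reached at least 16.7 mM. The labels give 6 months for every sample and name no strain, sex or heart chamber. The groups follow the titles. A disease tag in the labels contradicts them by calling the NC mice diabetic and the AngIV mice negative controls, and it was not used.

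Fatty acids are the main fuel of the adult heart. Long chains are tied to coenzyme A, passed to carnitine by CPT1 on the outer mitochondrial membrane, carried inward by the carnitine-acylcarnitine translocase and handed back to coenzyme A by CPT2. Repeated rounds of dehydrogenation, hydration, a second dehydrogenation and thiolysis then release acetyl-CoA. Many of these genes are known targets of PPAR-alpha, a nuclear receptor that binds with RXR to direct repeats of a short half-site, and malonyl-CoA restrains the pathway by inhibiting CPT1.

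Promoters of 29 of the 35 genes could be matched in a RefSeq table of the GRCm38.p6 build, each holding 250 bases before and 50 bases after the start site. Printed first are those of Cpt1a, the 1 gene that passed the test in any comparison, of Acadvl, which had an unadjusted p under 0.05 in DM and in AngIV against NC with positive changes, and of Echs1, which had one in DM against NC with a negative change. The last 2 were not called. Each holds 1 copy of the half-site AGGTCA on either strand, and capitals mark it. They lie at chr19:3323051-3323350 on the plus strand, chr11:70015379-70015678 on the minus strand and chr7:140116372-140116671 on the minus strand, and each is written 5′ to 3′ along its gene.
Cpt1a: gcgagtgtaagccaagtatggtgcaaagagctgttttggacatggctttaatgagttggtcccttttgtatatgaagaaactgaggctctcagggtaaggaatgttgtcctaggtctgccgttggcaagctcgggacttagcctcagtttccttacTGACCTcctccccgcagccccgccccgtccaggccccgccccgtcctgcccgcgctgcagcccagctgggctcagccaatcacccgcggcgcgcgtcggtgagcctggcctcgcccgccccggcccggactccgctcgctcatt
Acadvl: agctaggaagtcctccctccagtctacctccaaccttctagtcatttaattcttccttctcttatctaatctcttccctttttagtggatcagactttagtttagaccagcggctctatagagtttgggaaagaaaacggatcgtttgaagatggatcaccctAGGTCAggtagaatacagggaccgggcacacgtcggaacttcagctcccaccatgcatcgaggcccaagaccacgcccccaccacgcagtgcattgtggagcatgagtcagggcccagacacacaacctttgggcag
Echs1: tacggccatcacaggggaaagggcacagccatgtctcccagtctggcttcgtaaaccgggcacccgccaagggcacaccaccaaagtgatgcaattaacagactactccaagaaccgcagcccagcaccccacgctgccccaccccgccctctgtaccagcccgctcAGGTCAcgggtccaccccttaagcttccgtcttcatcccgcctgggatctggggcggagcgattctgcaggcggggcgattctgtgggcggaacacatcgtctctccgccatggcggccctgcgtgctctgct
The half-site starts at -94, -87 and -83 from the start site in these 3 promoters, on the opposite strand in that of Cpt1a. The 3 do not stand for all genes with such p-values. Acacb, Acadl, Cpt1a and Cpt1b met the same condition as Acadvl, and Hsd17b10 that of Echs1. The promoters of Acadl and Hsd17b10 hold no AGGTCA.

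The half-site AGGTCA, searched on both strands, was present in 6 of the 29 promoters (20.7%), those of Acacb, Acadm, Acadvl, Cpt1a, Echs1 and Phyh, against 16.3% of all 32851 promoters in the table. Its direct repeat AGGTCANAGGTCA, the looser form AGGNCANAGGNCA and the extended half-site TNAAGGTCA of the ERR receptors were found in 0 of the 29, against 0.0396%, 0.381% and 1.28% of all promoters. The strict repeat and the ERR motif contain the half-site. The clock E-box CACGTG was in 0 of the 29, against 7.15%. The GC box GGGCGG stood in 21 of the 29 (72.4%), against 35.7% of all promoters, and TATAAA in 1 of the 29 (3.45%), that of Acacb, against 13.6%. A match is a run of letters and not a measured binding site.

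Signals are log2 values made by the authors with RMA, so a difference of 1 is a doubling. Levels of different probe sets are not comparable with each other, and the text compares each gene only with itself. A gene was called when its limma adjusted p, over all 13653 genes, was under 0.05. Changes are given as log2 differences with their standard errors (SE). In heart tissue, a lower signal from fewer cells of a type cannot be told apart from less RNA per cell. A background level was set at the 95th percentile of signals from negative control probes, which averaged 5.53 on AngIV arrays, 5.53 on DM arrays and 5.48 on NC arrays, and 31 of the 35 genes had group means above it in all 3 groups. The means of Acad10, Acsl5 and Ehhadh lay below it in every group and that of Pex11a in AngIV, so these genes get no fold.

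The arrays were unequal in tissue content. The mean log2 signal of 5 atrial markers was 4.96 to 5.36 on the AngIV arrays, 4.55 to 8.11 on the DM arrays and 5.11 to 8.58 on the NC arrays, and Myl7, the atrial myosin light chain, lay below the negative control percentile on 4 AngIV, 1 DM and 2 NC arrays. The markers did not all move together. In AngIV against DM, Myl7, Myl4 and Sln had log2 changes of -3.93, -2.40 and -2.24, while Nppa had 0.04 (limma adjusted p from 0.46 to 0.995). Bmp10 was below that percentile on all 12 arrays. The mean of 7 macrophage markers was 5.50 to 6.45 in AngIV, 5.49 to 6.70 in DM and 5.43 to 5.76 in NC, and all 7 had a positive change in DM against NC and in AngIV against NC. Cd163 and Mpeg1 had the largest changes, 0.87 and 1.17 in DM against NC and 1.18 and 1.43 in AngIV against NC. Each lay above the negative control percentile on 4 of 12 arrays and Adgre1 on 1, the others on 10 or 12. The mean of 5 fibroblast markers was 6.76 to 7.34 in AngIV, 7.23 to 7.46 in DM and 7.19 to 7.86 in NC. In AngIV against NC, 1 of the 5, Col3a1, was called lower, where 0.623% of all genes were. Its log2 change was -1.17 ± 0.20 (SE), with limma adjusted p = 0.0097. Col1a1, Col1a2 and Postn had -0.42, -0.28 and -0.51 and Dcn 0.06, and these were not called. The 8 cardiomyocyte markers averaged 11.35 to 11.42 in AngIV, 11.27 to 11.37 in DM and 11.30 to 11.46 in NC. This fits the label of myocardium. Of 7 adipocyte markers, 6 were below the negative control percentile on all 12 arrays. The part of atrial tissue and macrophages in the changes below was not tested, apart from the fits with an atrial term.

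In DM against NC, 5 of the 6 carnitine shuttle genes were among the 11 of the 35 genes with higher values at an unadjusted limma p under 0.05. Of the shuttle genes, Cpt1a and Cpt1b alone kept that p without NC replicate 1. Without DM replicate 1, Cpt1a, Cpt1b and Crat kept it. No gene of the 35 was called by limma, with a smallest adjusted p of 0.176, and over all genes 0% were called higher and 0.022% lower. At an unadjusted limma p under 0.05, 11 of the 35 were higher and 2 lower, where 5.62% and 5.08% of all genes tested were. The median log2 change of the 35 was 0.12, against 0.00 for all genes tested, with 27 positive and 8 negative changes, against 49.6% and 50.4% of all genes. The DM and NC values did not overlap, with DM higher, for 9 of the 35, against 2.84% of all genes, and with DM lower for 0, against 2.45%.

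**Figure D1:**
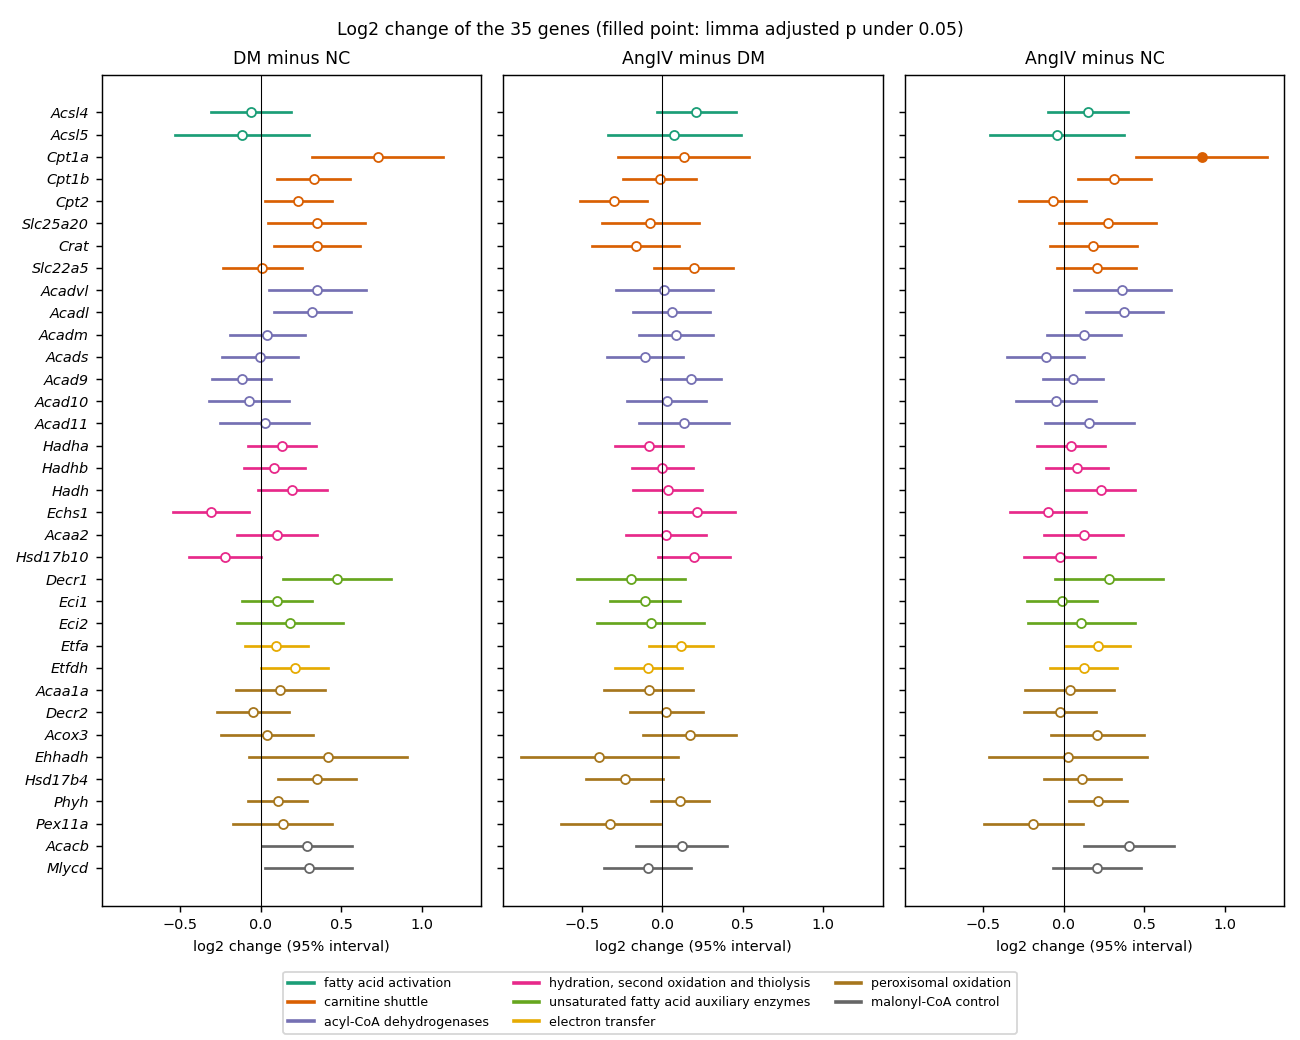
Log2 change of each of the 35 genes (horizontal axis) with its 95% interval in DM minus NC, AngIV minus DM and AngIV minus NC, with genes down the page coloured by role. A filled point is a gene with a limma adjusted p under 0.05, which is Cpt1a in AngIV minus NC alone, at 0.86.

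Cpt1a encodes the liver isoform of carnitine palmitoyltransferase 1, the rate-controlling step of mitochondrial entry. Its log2 signal was 7.48, 7.24, 7.03 and 6.72 on DM replicates 1 to 4, against 6.05, 6.47, 6.59 and 6.46 on NC replicates 1 to 4. Every DM array lay above every NC array, by the least on DM replicate 4. The log2 change was 0.73 ± 0.19 (SE), 1.65-fold with a 95% interval from 1.25 to 2.19, and it was not called (limma adjusted p = 0.176).

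Cpt1b, the muscle isoform that makes up most of CPT1 in the adult heart, read 10.06, 10.02, 9.88 and 9.76 on the DM arrays, against 9.51, 9.50, 9.70 and 9.69 on the NC arrays. The groups were apart again, with a narrow gap between DM replicate 4 and NC replicate 3. Its log2 change was 0.33 ± 0.11 (SE; limma adjusted p = 0.273), so the 2 isoforms of the same enzyme shared a direction with a larger point estimate for Cpt1a. Their 95% intervals, 0.32 to 1.13 for Cpt1a and 0.10 to 0.56 for Cpt1b, overlapped, and the difference between isoforms was not tested.

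The steps after CPT1 had values of the same sign. Slc25a20, the carnitine-acylcarnitine translocase, read 8.79, 8.52, 8.62 and 8.23 in DM, against 8.03, 8.12, 8.39 and 8.23 in NC. DM replicate 4 lay inside the NC range and the other 3 above it. Cpt2, the inner-membrane transferase, read 8.23, 8.18, 8.05 and 8.01 in DM, against 7.72, 7.91, 7.92 and 7.99 in NC. All 4 DM arrays stood above the NC arrays, with a gap at the closest pair that is far under the spread of either group. Crat, carnitine acetyltransferase, which buffers acetyl-CoA as acetylcarnitine, read 9.30, 9.46, 9.27 and 9.25 in DM, against 8.72, 9.10, 9.05 and 9.01 in NC, again without overlap. The log2 changes were 0.35 ± 0.14 (SE) for Slc25a20, 0.23 ± 0.10 for Cpt2 and 0.35 ± 0.13 for Crat, and limma gave adjusted p = 0.388, 0.404 and 0.334. Slc22a5, the plasma membrane carnitine transporter OCTN2, differed by 0.01 with a 95% interval from -0.24 to 0.26 and was the shuttle gene without an unadjusted p under 0.05.

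**Figure D2:**
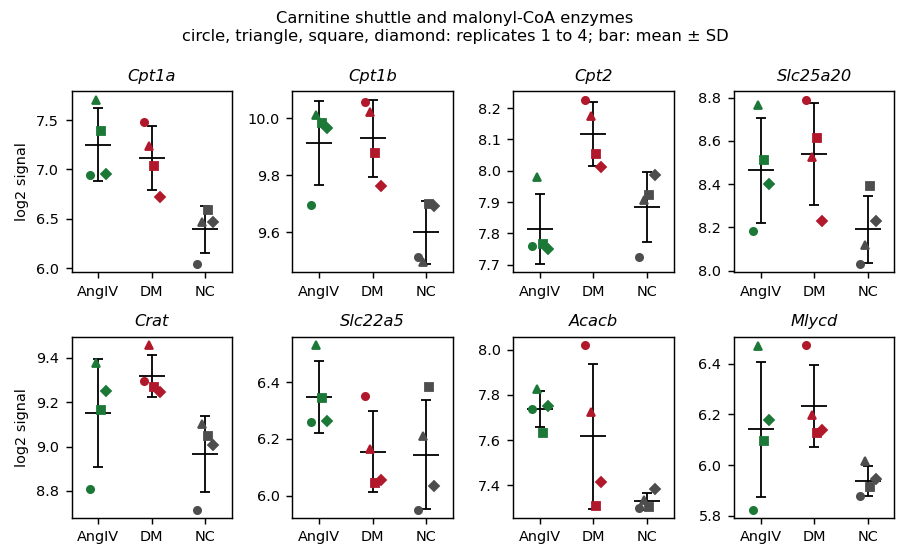
Log2 signal (vertical axis) of 6 carnitine shuttle genes and of Acacb and Mlycd on every AngIV, DM and NC array, with 1 symbol per replicate number and bars for mean ± SD (n = 4). The DM points of Cpt1a, Cpt1b, Cpt2, Crat and Mlycd all lie above the NC points, while for Cpt2 the 4 AngIV points all lie below the DM points.

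Both enzymes of malonyl-CoA had positive changes. Acacb, acetyl-CoA carboxylase 2, which makes the malonyl-CoA that inhibits CPT1, read 8.02, 7.73, 7.31 and 7.42 in DM, against 7.30, 7.33, 7.30 and 7.38 in NC. DM replicate 3 fell inside the tight NC range. Mlycd, malonyl-CoA decarboxylase, which removes the same inhibitor, read 6.47, 6.20, 6.13 and 6.14 in DM, against 5.88, 6.01, 5.91 and 5.94 in NC, without overlap. The log2 changes were 0.29 ± 0.13 (SE) and 0.30 ± 0.13 (limma adjusted p = 0.453 and 0.42). Without DM replicate 1 the changes were 0.15 for Acacb and 0.22 for Mlycd. On the 1 DM and 2 NC arrays with Myl7 below background, picked after seeing the data, they were -0.05 for Acacb and 0.15 for Mlycd. The lone DM array there, DM replicate 3, gave the lowest DM value of both genes.

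Among the acyl-CoA dehydrogenases, which take the first electrons from the chain, the 2 with an unadjusted p under 0.05 were Acadvl and Acadl, and neither was called. Acadvl, the very-long-chain dehydrogenase, read 10.32, 9.87, 9.84 and 9.74 in DM, against 9.39, 9.43, 9.85 and 9.70 in NC, with DM replicates 3 and 4 inside the NC range. Acadl, the long-chain dehydrogenase, read 10.82, 10.70, 10.51 and 10.47 in DM, against 10.15, 10.31, 10.39 and 10.38 in NC, without overlap. The log2 changes were 0.35 ± 0.14 (SE) and 0.32 ± 0.11 (limma adjusted p = 0.379 and 0.32). The other 5, which are the medium-chain Acadm, the short-chain Acads, the complex I assembly factor Acad9, Acad10 and Acad11, had log2 changes from -0.12 to 0.04, and their 95% intervals together ran from -0.32 to 0.30. Those of Acadvl, 0.05 to 0.65, and Acadl, 0.08 to 0.56, overlapped them, and the difference between the dehydrogenases was not tested.

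The later steps of the spiral split in sign. Echs1, the short-chain enoyl-CoA hydratase, read 9.29, 9.25, 9.60 and 9.44 in DM, against 9.51, 9.78, 9.75 and 9.77 in NC. The low value of NC replicate 1 kept the groups from separating, since 3 DM arrays lay below all NC arrays. Hsd17b10, a short-chain hydroxyacyl-CoA dehydrogenase that also acts on isoleucine and as a subunit of mitochondrial RNase P, read 9.15, 9.36, 9.56 and 9.43 in DM, against 9.51, 9.68, 9.63 and 9.58 in NC. The log2 changes were -0.31 ± 0.11 (SE; limma adjusted p = 0.324) and -0.22 ± 0.10 (limma adjusted p = 0.462), and these were the 2 genes lower at an unadjusted p under 0.05. Echs1 alone was lower without NC replicate 2, 3 or 4, DM replicate 1, 2 or 4, or AngIV replicate 1, 2 or 3. Hadha and Hadhb, the subunits of the trifunctional protein that handles long chains, Hadh, the medium- and short-chain hydroxyacyl-CoA dehydrogenase, and the thiolase Acaa2 had changes from 0.08 to 0.20.

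Unsaturated chains need helper enzymes, and all 3 measured had positive changes. Decr1, the mitochondrial 2,4-dienoyl-CoA reductase, read 9.88, 9.86, 9.69 and 9.62 in DM, against 9.08, 9.33, 9.47 and 9.27 in NC. No DM array overlapped the NC arrays, and the log2 change was 0.48 ± 0.16 (SE; limma adjusted p = 0.286). The isomerases Eci1 and Eci2 had changes of 0.10 to 0.18. Etfdh, which passes electrons from the dehydrogenases to ubiquinone, read 10.39, 10.25, 10.26 and 10.16 in DM, against 9.91, 10.07, 10.10 and 10.14 in NC, without overlap and with a log2 change of 0.21 ± 0.10 (limma adjusted p = 0.471).

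In the peroxisomal branch, which shortens very long and branched chains, Hsd17b4 was the 1 of 7 genes with an unadjusted p under 0.05. It encodes the D-bifunctional protein and read 8.19, 7.99, 8.12 and 7.99 in DM, against 7.63, 7.50, 7.93 and 7.85 in NC. Each DM array exceeded each NC array, with a log2 change of 0.35 ± 0.11 (SE; limma adjusted p = 0.273). The other 6, the thiolase Acaa1a, the reductase Decr2, the oxidase Acox3, the L-bifunctional protein Ehhadh, the phytanoyl-CoA hydroxylase Phyh and the division factor Pex11a, had changes from -0.05 to 0.42. The upper end is Ehhadh, whose signals were near background, and Acaa1a has a near-identical neighbour, Acaa1b, whose RNA its probes may also catch. The 2 synthetases measured, Acsl4 and Acsl5, had changes of -0.06 and -0.12 with 95% intervals between -0.53 and 0.30.

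**Figure D3:**
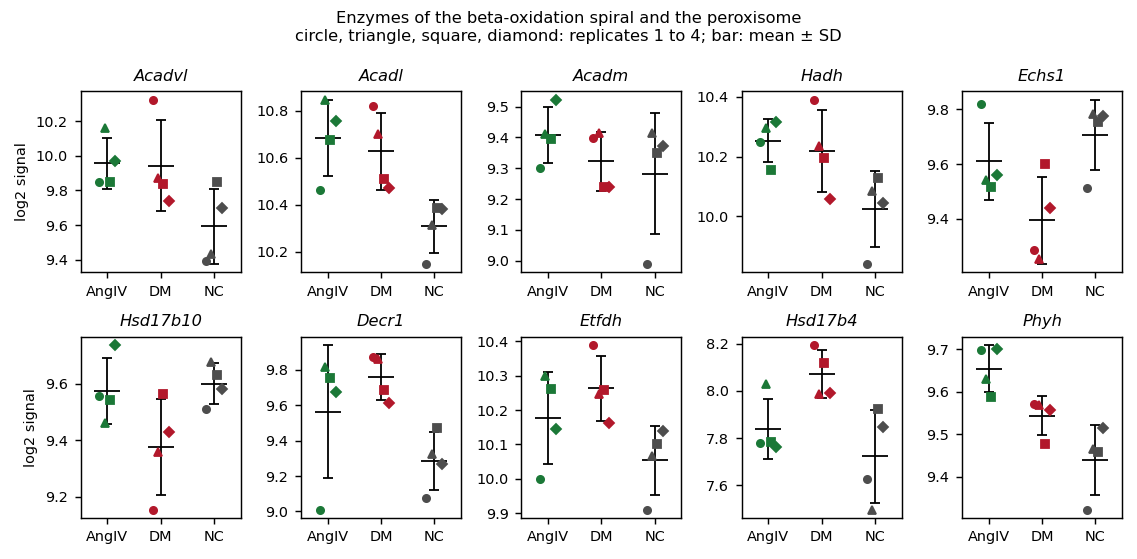
Log2 signal (vertical axis) of 10 enzymes of beta-oxidation on every AngIV, DM and NC array, with 1 symbol per replicate number and bars for mean ± SD (n = 4). Acadl and Decr1 have DM points above every NC point, while 3 DM points of Echs1 and of Hsd17b10 lie below every NC point.

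Single arrays weighed on these counts. NC replicate 1 gave the lowest NC value for 26 of the 35 genes, and DM replicate 1 gave the highest DM value for 27, while DM replicate 4 gave the lowest DM value for 18. The median difference of the 35 genes from the NC mean was 0.28, 0.13, 0.11 and 0.04 on DM replicates 1 to 4, against -0.16, 0.02, 0.10 and 0.05 on NC replicates 1 to 4, so the groups overlapped in it. The median change of 0.12 was 0.06 without NC replicate 1 and 0.07 without DM replicate 1. Without NC replicate 1 the higher genes at that p numbered 5, namely Acadl, Cpt1a, Cpt1b, Decr1 and Hsd17b4. Without DM replicate 1 there were 6, those 5 and Crat. NC replicate 1 also had the highest atrial marker mean, 8.58, and DM replicate 1 the highest macrophage marker mean, 6.70. With the mean of the 4 atrial markers that were tested, without Bmp10, as a covariate, 10 genes were higher and 1 lower. On the 1 DM and 2 NC arrays with Myl7 below the negative control percentile, a selection made after seeing the data, 0 were higher and 0 lower at that p, the lone DM array being taken to vary like the other groups, and the log2 change of Cpt1a was 0.57.

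**Figure D4:**
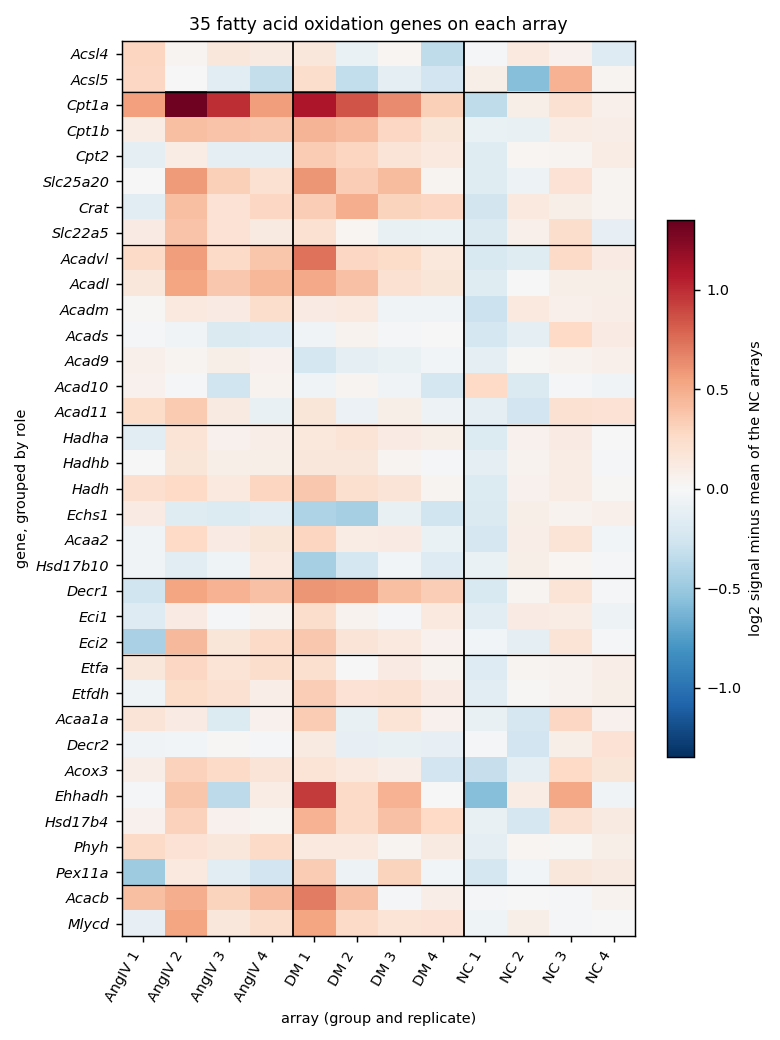
Log2 signal of the 35 genes, 1 row per gene grouped by role, on the 12 arrays, shown as the difference from the gene's mean over the NC arrays (red higher, blue lower). Cpt1a, Cpt1b and Acadl are red on all DM and AngIV arrays, and the NC replicate 1 column is mostly blue.

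AngIV against DM asked what angiotensin IV did to these genes in diabetic mice. No gene of the 35 was called by limma, and over all genes 0% were called in either direction, with a smallest adjusted p of 0.177. At an unadjusted limma p under 0.05, 0 of the 35 were higher and 2 lower, where 5.27% and 3.51% of all genes were. The median log2 change was 0.02, against 0.01 for all genes, with 19 positive and 16 negative changes, against 52.9% and 47.1% of all genes. That median was -0.03 without DM replicate 4 and 0.08 without DM replicate 1. AngIV and DM values did not overlap for 2 genes higher in AngIV, Acad9 and Phyh, and 1 lower, Cpt2, against 3.57% and 2.19% of all genes.

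Cpt2 had the smallest p. Its log2 signal was 7.76, 7.98, 7.77 and 7.75 on AngIV replicates 1 to 4, against 8.23, 8.18, 8.05 and 8.01 on DM replicates 1 to 4. All AngIV arrays were below all DM arrays, with AngIV replicate 2 the closest. The log2 change was -0.30 ± 0.10 (SE; limma adjusted p = 0.46), and the AngIV mean of 7.81 ± 0.11 was near the NC mean of 7.88 ± 0.11 (SD, n = 4). The same DM arrays enter this change and that of 0.23 in DM against NC, and Cpt2 was called in neither. Pex11a, which promotes division of peroxisomes, read 5.17, 5.79, 5.50 and 5.39 in AngIV, against 5.99, 5.58, 5.95 and 5.62 in DM, a difference of -0.32 ± 0.14 between signals near background (limma adjusted p = 0.546).

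Hsd17b4 read 7.78, 8.03, 7.79 and 7.76 in AngIV, against 8.19, 7.99, 8.12 and 7.99 in DM, with AngIV replicate 2 inside the DM range and a log2 change of -0.23 ± 0.11 (SE; limma adjusted p = 0.567). Acad9 read 6.68, 6.64, 6.68 and 6.67 in AngIV, against 6.37, 6.49, 6.52 and 6.57 in DM, with a change of 0.18 ± 0.09 (limma adjusted p = 0.569). The hydratase Echs1 was at 9.82, 9.54, 9.52 and 9.56 in AngIV, against 9.29, 9.25, 9.60 and 9.44 in DM, and Hsd17b10 at 9.56, 9.46, 9.54 and 9.74, against 9.15, 9.36, 9.56 and 9.43. Their changes of 0.21 ± 0.11 and 0.20 ± 0.10 had the opposite sign to those in DM against NC, a pair of comparisons that share the DM arrays, and neither was called (limma adjusted p = 0.588 and 0.596). With the atrial covariate they were 0.07 for Echs1 and 0.11 for Hsd17b10, and on the arrays with Myl7 below background, 4 AngIV and 1 DM, they were 0.01 for each. In DM against NC on such arrays, 1 DM and 2 NC, the changes were -0.18 for Echs1 and -0.07 for Hsd17b10.

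Cpt1a had 6.95, 7.71, 7.39 and 6.95 on the AngIV arrays, against 7.48, 7.24, 7.03 and 6.72 on the DM arrays. The groups overlapped, with a log2 change of 0.13 ± 0.19 (SE; limma adjusted p = 0.859). Its 95% interval ran from -0.28 to 0.54. The other shuttle genes Cpt1b, Slc25a20, Crat and Slc22a5 had changes from -0.17 to 0.19 with 95% intervals between -0.44 and 0.44, and the trifunctional subunits, Hadh and Acaa2 had changes from -0.08 to 0.03. The other 6 dehydrogenases had changes from -0.11 to 0.14, Etfa and Etfdh from -0.09 to 0.12, the 3 helper enzymes of unsaturated chains from -0.19 to -0.07 and the 2 synthetases from 0.07 to 0.21. Acacb and Mlycd lay between -0.09 and 0.12, and the other 5 peroxisomal genes between -0.39 and 0.17, with Ehhadh near background at the low end. Counts in this comparison turned on single arrays. The number of higher genes at an unadjusted p under 0.05 was 3 without DM replicate 1 (Acacb, Acsl4 and Slc22a5), 2 without DM replicate 3 and 1 without DM replicate 4, and the number of lower genes was 1 without DM replicate 1 or 3 or without AngIV replicate 1, 3 or 4, and 3 without AngIV replicate 2, DM replicate 4 or NC replicate 2 or 3.

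In AngIV against NC, which sets treated diabetic hearts beside non-diabetic ones, 1 of the 35 genes rose and 0 fell at a limma adjusted p under 0.05, where 1.52% of all genes were called higher and 0.623% lower. At an unadjusted limma p under 0.05, 8 were higher and 0 lower, where 10.9% and 7.74% of all genes were. The median log2 change was 0.12, against 0.00 for all genes, with 26 positive and 9 negative changes, against 50.6% and 49.4% of all genes. Groups were apart, with AngIV higher, for 7 genes, against 7.59% of all genes, and lower for 0, against 5.17%. This comparison shares the NC arrays with DM against NC and the AngIV arrays with AngIV against DM, so the 3 are not independent.

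The gene that rose was Cpt1a. Its log2 signal was 6.95, 7.71, 7.39 and 6.95 on AngIV replicates 1 to 4, against 6.05, 6.47, 6.59 and 6.46 on NC replicates 1 to 4, with no overlap. The log2 change was 0.86 ± 0.19 (SE; limma adjusted p = 0.0329), 1.81-fold with a 95% interval from 1.37 to 2.40. The call was lost without NC replicate 1, 2 or 4 or AngIV replicate 2 or 3, with log2 changes from 0.70 to 0.88, and with the atrial covariate, at 0.83 (limma adjusted p = 0.0601), and on the arrays with Myl7 below background, at 0.78 (limma adjusted p = 0.135). Over all alternatives its adjusted p ran from 0.0129 to 0.135.

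The next genes were not called. Acadl read 10.46, 10.84, 10.67 and 10.75 in AngIV, against 10.15, 10.31, 10.39 and 10.38 in NC, all above the NC arrays, with a log2 change of 0.38 ± 0.11 (SE; limma adjusted p = 0.0886). Acacb read 7.74, 7.83, 7.63 and 7.75, against 7.30, 7.33, 7.30 and 7.38, a change of 0.41 ± 0.13 (limma adjusted p = 0.115) with little spread in either group. Cpt1b was at 9.70, 10.01, 9.98 and 9.97 in AngIV, against 9.51, 9.50, 9.70 and 9.69 in NC, with AngIV replicate 1 inside the NC range and a change of 0.31 ± 0.11 (limma adjusted p = 0.128). The muscle isoform and both long-chain dehydrogenases thus lay higher on most AngIV arrays. Acadvl read 9.85, 10.16, 9.85 and 9.97 in AngIV, against 9.39, 9.43, 9.85 and 9.70 in NC, and its change was 0.36 ± 0.14 (limma adjusted p = 0.185). Phyh, which starts the breakdown of phytanic acid in peroxisomes, read 9.70, 9.63, 9.59 and 9.70, against 9.32, 9.47, 9.46 and 9.51, with a change of 0.21 ± 0.08 (limma adjusted p = 0.192). Etfa, a subunit of the electron transfer flavoprotein, and Hadh were the remaining pair at an unadjusted p under 0.05. Of the genes not given by array here, Cpt2, Slc25a20, Crat and Slc22a5 had changes from -0.07 to 0.27, the 5 other dehydrogenases from -0.11 to 0.16, the 6 genes of the later spiral from -0.10 to 0.23 and the helper enzymes from -0.01 to 0.28. The synthetases ran from -0.04 to 0.15, the 6 other peroxisomal genes from -0.19 to 0.21, Etfa and Etfdh from 0.12 to 0.21, and Mlycd was at 0.20.

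Of the 8 genes higher at that p, 5 were also higher at it in DM against NC, namely Acacb, Acadl, Acadvl, Cpt1a and Cpt1b, and they are 5 of the 11 there. The shared NC arrays enter both counts, and the share of all genes higher in both comparisons was not counted. The number in AngIV against NC was 4 without NC replicate 1 (Acacb, Acadl, Cpt1a and Cpt1b), 5 without AngIV replicate 2 and 5 without AngIV replicate 4. On arrays with Myl7 below the negative control percentile, which include all 4 AngIV arrays, and with the atrial covariate, 5 were higher, the same Acacb, Acadl, Acadvl, Cpt1a and Cpt1b in both. AngIV replicate 2 gave the highest AngIV value for 23 of the 35 genes and AngIV replicate 1 the lowest for 20. The median difference of the 35 genes from the NC mean was 0.06, 0.27, 0.13 and 0.12 on AngIV replicates 1 to 4, overlapping the NC arrays.

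Other fatty acid oxidation genes outside the list did not lean one way. Of 25 tested, 12 had a positive change in DM against NC, with 0 called and a median log2 change of 0.00. At an unadjusted limma p under 0.05, 3 were higher and 3 lower, where 5.62% and 5.08% of all genes were. Between 8 and 12 of the 25 lay below the negative control percentile on each array, against 1 to 5 of the 35 genes. The difference between the lists was not tested. The smallest p-values there were those of Acadsb, the short/branched-chain dehydrogenase of isoleucine breakdown, with a log2 change of -0.50 ± 0.11 (SE), Acsf2, a medium-chain acyl-CoA synthetase, with 0.60 ± 0.16, Dbi, the acyl-CoA binding protein, with 0.37 ± 0.13, and Acsl6, with -0.40 ± 0.14 (limma adjusted p from 0.104 to 0.32). In AngIV against DM, 3 of the 25 were higher and 2 lower at that p, where 5.27% and 3.51% of all genes were. Groups were apart for 2 genes higher in AngIV, Acadsb at 0.41 ± 0.11 and Acad8 at 0.30 ± 0.09. They were apart for 1 lower, Dbi at -0.43 ± 0.13 (limma adjusted p = 0.366, 0.45 and 0.378). Over all genes, groups were apart for 3.57% higher and 2.19% lower.

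A list of PPAR-alpha, its partners and its targets in other steps of lipid handling was set beside the 35 genes, and the difference between the lists was not tested. Of 19 tested, 11 were higher and 0 lower at an unadjusted limma p under 0.05 in DM against NC. Over all genes, 5.62% were higher and 5.08% lower at that p. Of the 19, 0 were called, against 0% of all genes called higher and 0.022% lower, and the median log2 change was 0.50. Their median difference from the NC mean was 0.87, 0.44, 0.39 and 0.16 on DM replicates 1 to 4. The smallest p-values belonged to the acyl-CoA thioesterases Acot1, at 1.61 ± 0.31 (SE), and Acot2, at 1.07 ± 0.24, and to the lipases Pnpla2, at 0.58 ± 0.13, and Lipe, at 0.80 ± 0.22 (limma adjusted p from 0.0681 to 0.203). The receptor gene itself, Ppara, had -0.18 ± 0.13 (limma adjusted p = 0.663), and its partner Rxra 0.14 ± 0.12 (limma adjusted p = 0.718). In AngIV against DM, 1 was higher and 0 lower, against 5.27% and 3.51% of all genes, with a median of -0.09. In AngIV against NC, 7 were higher and 0 lower, against 10.9% and 7.74% of all genes. After adjustment over all genes 2 rose and 0 fell, where 1.52% of all genes were called higher and 0.623% lower. They were the triglyceride lipase Pnpla2 at 0.75 ± 0.13 (SE) and the fatty acid transport protein Slc27a1 at 0.81 ± 0.20 (limma adjusted p = 0.0097 and 0.0447). The median difference of the 19 from the NC mean was 0.13, 0.67, 0.41 and 0.21 on AngIV replicates 1 to 4. This list was written with earlier results of these data known.

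Genes of mitochondrial content, such as citrate synthase and respiratory chain subunits, served to set the 35 genes beside mitochondria as a whole. Of 18 tested, 0 were higher and 0 lower at an unadjusted limma p under 0.05 in DM against NC, with a median log2 change of -0.03. Over all genes, 5.62% were higher and 5.08% lower at that p. In AngIV against DM 1 was higher and 1 lower, against 5.27% and 3.51% of all genes, with a median of 0.04. In AngIV against NC the counts were 1 and 1, against 10.9% and 7.74%, with a median of 0.01. None of these 18 genes was called in any comparison, and the difference between them and the 35 genes was not tested. Their median difference from the NC mean on NC replicate 1 was -0.12, so that array was low in these genes too.

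**Figure D5:**
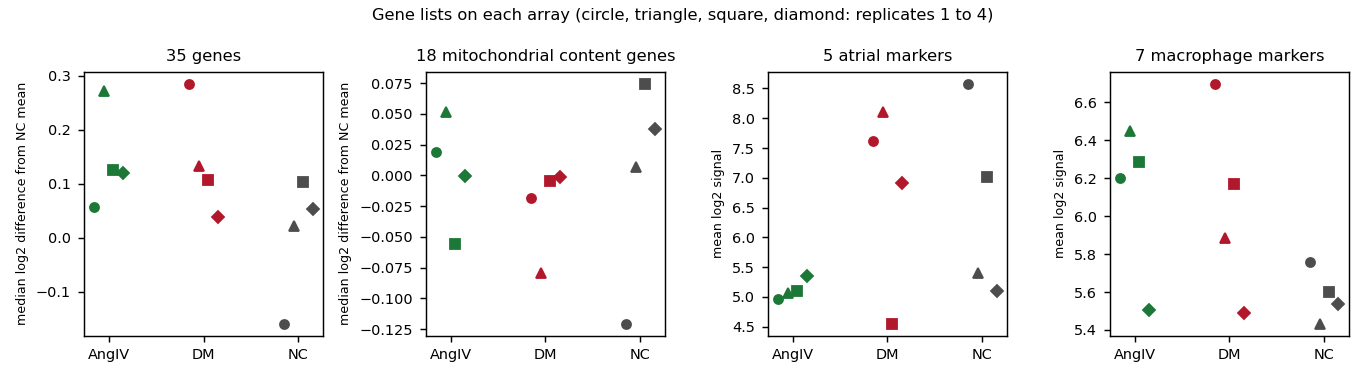
Values per array for AngIV, DM and NC, with 1 symbol per replicate number: the median log2 difference from the NC mean of the 35 genes and of 18 mitochondrial content genes, and the mean log2 signal of 5 atrial and 7 macrophage markers. NC replicate 1 is lowest in the first panel at -0.16 and highest in atrial markers at 8.58.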

How the data were processed

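RNA from mouse myocardium was measured on 12 Affymetrix arrays. The authors deposited log2 values in 1 table, which came from RMA (background correction, quantile normalization and probe summary), per the submitters' processing notes; its version, chip description and genome build are not given in the sources used here, and the log2 scale was read from the values. Quantile normalization hides changes in total mRNA, and RMA compresses large and dim differences.

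Of 29129 probe sets, 22206 were transcripts and 19572 carried 1 symbol in the platform annotation. The probe set of highest mean was kept per gene, and the dimmest 30% of genes (mean under 3.40) were left out. Limma 3.58.1 in R 4.3.3 fitted group means over all 12 arrays, with Benjamini-Hochberg adjustment over 13653 genes and the median SE at 0.127. Precision is limited by the number of arrays. Promoter letters were searched with Python 3.11.15. Alternatives were other scalings, filters, priors, weights, a replicate block, an atrial covariate and leaving out each array. Replicate numbers were not taken to pair mice.

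The genes and lists were chosen with earlier results of these data known. Values on every array are given for called genes and for the 14 of smallest p in DM against NC and the 6 of smallest p in each comparison of AngIV.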

Additional observations from a re-analysis of the deposited data

Results flagged for a closer look

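In each group of 4 arrays, a value was picked out when its gap to the nearest other value, as a share of the range of the group, passed Dixon's 95% critical value. Of 105 such groups, 3 for each of the 35 genes, 8 held one, where chance gives about 1 in 20. On AngIV replicate 1, Cpt1b was low at 9.695 (the others at 9.967 to 10.01) and Echs1 high at 9.818 (9.517 to 9.559). On AngIV replicate 2, Cpt2 was high at 7.981 (7.75 to 7.767) and Hsd17b4 high at 8.03 (7.76 to 7.785). In DM, Decr2 was high on replicate 1 at 6.178 (5.95 to 5.963) and Phyh low on replicate 3 at 9.476 (9.558 to 9.573). On NC replicate 1, Acadm was low at 8.99 (9.35 to 9.416) and Echs1 low at 9.515 (9.755 to 9.782).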

How the results depend on the processing

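Over 24 alternatives, the 14 genes described in DM against NC kept their direction except Acacb, and none was called. Acacb was at -0.049 on the 1 DM and 2 NC arrays without atrial signal. That phrase stands here for Myl7 below the negative control percentile and not for every atrial marker. Myl4 read 6.02 and 5.80 on NC replicates 2 and 4, which are among those arrays, and lay above that percentile on both. In AngIV against DM, Cpt1a, at 0.13 in all, ran from -0.0204 without AngIV replicate 2 to 0.2526 without DM replicate 1, and was -0.0023 without DM replicate 4, and in AngIV against NC all kept their direction. Acadl was called above the negative controls and with a trend in the prior (limma adjusted p = 0.038 and 0.0292), and Acacb in the 2 groups alone and without DM replicate 1 (0.0348 and 0.0442). Leaving out 1 array, the median change of the 35 genes ran from 0.06 (without NC replicate 1) to 0.17 in DM against NC, from -0.03 (without DM replicate 4) to 0.08 (without DM replicate 1) in AngIV against DM, where its sign is not settled, and from 0.08 to 0.18 in AngIV against NC.

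Genes called in DM against NC, 3 in all, were 20 with the dimmest 50% left out, 22 above the negative controls, 29 with a trend in the prior, 5 in the 2 groups alone and 0 on arrays without atrial signal (3 to 30 leaving out 1 array, the most without DM replicate 4). In AngIV against DM they were 0 to 5 leaving out 1 array. In AngIV against NC, 293 in all, they were 492, 633, 576, 466 and 102 under the same settings (104 to 469 leaving out 1 array). Of the 35 genes, 2 were called higher in AngIV against NC with the trend or in the 2 groups alone. Of all 13653 genes, 407 and 316 were called higher in these settings. Above the negative controls, 32 of the 35 were among 6759 genes tested, and 2 were called higher, where 430 of the 6759 were. With the atrial covariate 0 of the 35 were called (0 to 2 leaving out 1 array).

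At an unadjusted p under 0.05, higher genes in DM against NC numbered 7 with array weights and 0 without atrial signal (5 to 14 leaving out 1 array). Lower genes were 1 with medians centred, no dim filter, array weights, 2 groups alone, the replicate block or the atrial covariate, and 0 without atrial signal (1 to 2). In AngIV against DM, higher genes were 1 with the dimmest 50% left out, above the negative controls or without atrial signal and 3 with the trend (0 to 3), and lower genes 1 with the replicate block and 0 without atrial signal (1 to 3). In AngIV against NC, higher genes were 5 with the atrial covariate or without atrial signal (4 to 11). Causes were not tested. With the replicate number as a block, Cpt1a stayed called in AngIV against NC. Deviations of same-numbered arrays correlated at -0.12 to 0.21, so the numbers were not taken to pair mice.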
